A study of Homo sapiens with 9 samples.

Results

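Of 67528 transcript clusters measured on the arrays, 1543 carried the symbols of several genes in the platform annotation. A transcript cluster is a set of probes that the array design assigns to one stretch of transcribed genome and that gives one value per array. The shared clusters were chosen from the annotation alone, by an ID that starts with TC and by 2 or more gene symbols. Another 23781 clusters carried 1 symbol and 42204 carried none. The cells were labelled SH-SY5Y, an established human neuroblastoma line, and were exposed for 12 h to okadaic acid (OA) in medium with 4% serum. The 3 groups were untreated cells, cells at 20 nM OA and cells at 60 nM OA, with 3 arrays each. OA, made by marine dinoflagellates, blocks the protein phosphatases PP2A and PP1. The arrays labelled 60 nM by their title code and by the series design carry 20 nM in the treatment field, and are called 60 nM here. The arrays of a group are labelled biological replicates, but nothing says whether their cultures were separate, so the p-values measure only the spread between these 9 samples.

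Genes come to share a cluster in several ways. Recent duplications leave near-identical copies, as in the replication-dependent histone genes, which sit in clusters on chromosomes 1 and 6 and are transcribed mainly in S phase. Small RNA genes lie within the introns or exons of longer host transcripts, and readthrough transcripts join neighbouring genes. In each case a shared value belongs to the region, and which of the listed genes gave the signal cannot be told apart. In a bulk sample, fewer cells of a type and less RNA per cell cannot be told apart either.

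The sequences that bear on the results come from RefSeq tables of GRCh38.p14. Of 275 microRNA symbols held by shared clusters, 247 had a mature sequence there. The promoters of the histone H4 genes are shown because 13 clusters listed the same 14 H4 genes and yet changed by very different amounts. Each window runs from 250 bases before to 50 bases after the start of transcription and is printed 5′ to 3′ on the strand of the gene. H4C14 lies at chr1:149832407-149832706, + strand, H4C8 at chr6:26285485-26285784, - strand and H4C5 at chr6:26204360-26204659, + strand. The window of H4C15 (chr1:149861110-149861409, - strand) was identical to that of H4C14, with 0 positions that differ. Capitals mark GGTCCG, a motif chosen after the letters were read.
H4C14: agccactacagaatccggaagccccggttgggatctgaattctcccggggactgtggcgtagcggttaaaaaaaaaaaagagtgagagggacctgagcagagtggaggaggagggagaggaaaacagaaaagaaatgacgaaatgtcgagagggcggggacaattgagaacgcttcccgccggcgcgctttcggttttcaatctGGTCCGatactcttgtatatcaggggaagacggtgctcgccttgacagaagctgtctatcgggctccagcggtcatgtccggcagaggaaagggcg
H4C8: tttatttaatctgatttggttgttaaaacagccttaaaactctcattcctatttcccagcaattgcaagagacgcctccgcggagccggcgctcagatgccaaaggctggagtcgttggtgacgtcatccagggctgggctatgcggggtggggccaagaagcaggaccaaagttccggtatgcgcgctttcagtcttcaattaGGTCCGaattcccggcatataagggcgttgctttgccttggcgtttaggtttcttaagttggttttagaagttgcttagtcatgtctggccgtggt
H4C5: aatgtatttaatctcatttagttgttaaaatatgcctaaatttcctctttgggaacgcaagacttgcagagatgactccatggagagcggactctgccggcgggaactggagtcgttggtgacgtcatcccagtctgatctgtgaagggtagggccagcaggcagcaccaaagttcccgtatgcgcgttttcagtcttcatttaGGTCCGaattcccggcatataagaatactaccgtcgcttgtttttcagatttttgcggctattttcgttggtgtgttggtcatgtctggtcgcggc

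GGTCCG was searched on both strands. All 12 H4 promoters in the table held it, against 11.2% of 27305 promoters of the same length. In the windows printed above it started at position 205. The rest of the window differed between loci: H4C14 and H4C8 were identical at 50.7% of aligned positions, H4C14 and H4C5 at 52.6%, and H4C8 and H4C5 at 70.2%. CCAAT was in 25% of the H4 promoters and TATAAA in 50%, against 35.7% and 12% of all promoters. These matches describe letters only.

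The promoters of RFPL4A (chr19:55758847-55759146, + strand) and RFPL4AL1 (chr19:55768868-55769167, + strand) are shown because the cluster of this gene pair rose most. Capitals mark CCAAT or its reverse complement ATTGG, and TATAAA.
RFPL4A: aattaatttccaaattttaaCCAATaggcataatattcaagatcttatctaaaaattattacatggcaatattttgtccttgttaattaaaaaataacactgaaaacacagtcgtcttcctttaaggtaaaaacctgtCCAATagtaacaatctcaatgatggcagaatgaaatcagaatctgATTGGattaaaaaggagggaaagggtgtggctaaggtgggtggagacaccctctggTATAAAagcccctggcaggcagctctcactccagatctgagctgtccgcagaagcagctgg
RFPL4AL1: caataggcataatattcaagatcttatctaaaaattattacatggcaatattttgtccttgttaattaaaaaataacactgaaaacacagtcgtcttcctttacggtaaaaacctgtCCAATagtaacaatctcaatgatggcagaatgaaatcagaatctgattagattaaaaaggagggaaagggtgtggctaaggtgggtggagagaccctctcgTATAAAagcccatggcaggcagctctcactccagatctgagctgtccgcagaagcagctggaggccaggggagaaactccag

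Over 279 aligned bases the RFPL4A and RFPL4AL1 windows differed at 5, an identity of 98.2%. TATAAA began at position 240 of the RFPL4A window and at position 219 of the RFPL4AL1 window. Aligned over the whole windows, RFPL4A and RFPL4AL1 were identical at 85.4% of positions, and the values of all other pairs are of this whole-window kind. On it some other duplicated pairs in shared clusters were close, with 99.3% identity for H2AC18 and H2AC19, 97.4% for H3C14 and H3C15 and 92.0% for HSPA1A and HSPA1B. Other duplicated pairs gave lower values, with 46.8% for RGPD5 and RGPD8, 46.4% for RGPD5 and RGPD6, 46.1% for NPIPA1 and NPIPA8 and 52.5% for NUDT4 and NUDT4B. Windows placed at different annotated starts also lower this measure, so it cannot tell whether the promoters of these pairs differ. Neighbours in one cluster gave like values, with 51.7% for CPNE1 and NFS1 and 46.6% for MSH5 and SAPCD1.

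The mature microRNAs of some shared clusters with large changes are printed with the seed, bases 2 to 8, in capitals. That of MIR548N, listed with OSBPL6, is not among them. The seed is the part of a microRNA that pairs with its targets.
miR-3615: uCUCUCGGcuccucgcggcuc
miR-4639-5p: uUGCUAAGuaggcugagauuga
miR-4639-3p: uCACUCUCaccuugcuuugc
miR-4775: uUAAUUUUuuguuucggucacu
miR-4683: uGGAGAUCcagugcucgcccgau
miR-3198: gUGGAGUCcuggggaauggaga
miR-4707-5p: gCCCCGGCgcgggcggguucugg
miR-4707-3p: aGCCCGCCccagccgagguucu

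No other microRNA held by a shared cluster had the seed of any of these. The best-known polycistronic microRNA genes among the shared clusters are MIR17HG and MIR23AHG, whose members follow for comparison. Among them miR-17-5p and miR-20a-5p share the seed AAAGUGC, and miR-19a-3p and miR-19b-3p share GUGCAAA.
miR-17-5p: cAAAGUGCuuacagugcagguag
miR-20a-5p: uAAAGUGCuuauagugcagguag
miR-18a-5p: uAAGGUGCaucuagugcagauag
miR-19a-3p: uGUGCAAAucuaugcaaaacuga
miR-19b-3p: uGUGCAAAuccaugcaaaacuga
miR-92a-3p: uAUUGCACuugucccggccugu
miR-23a-3p: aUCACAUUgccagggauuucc
miR-27a-3p: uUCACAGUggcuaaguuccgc
miR-24-3p: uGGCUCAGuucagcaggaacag

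The 1543 shared clusters held 4405 symbol entries, 4375 of which matched a RefSeq gene, and 2592 distinct symbols. Most held few: 1105 clusters had 2 symbols, 248 had 3, 134 had 4 to 9 and 56 had 10 or more, with 16 at most. In 246 clusters the symbols were an old and a current name of a single gene, such as ABHD17B and FAM108B1, and 1297 held at least 2 current genes. The genes of 125 clusters lay on several chromosomes, and 246 clusters held a pseudogene. Alternate haplotypes accounted for 141 clusters, 138 of them of chromosome 6, which carries the major histocompatibility complex. Chromosome 1 held 153 clusters and chromosome X 128. In 62 groups, 184 clusters had the same value as another on all 9 arrays, which left 1421 distinct profiles. The largest such group was of 16 clusters that each listed the same 16 genes of 5S ribosomal RNA, at 15.48 in untreated cells. Clusters of one family therefore share probes or genes and are not independent replicates.

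By symbol, 634 clusters held paralogs, 40 partly paralogs, 228 a microRNA, 102 a small nucleolar RNA (snoRNA) and 45 another small RNA. Symbols were counted as paralogs when they shared their opening letters, without a check of the genes. Some paralog clusters therefore list an old and a current name of a single gene, such as NPIPB3 and NPIPL3. A further 87 were readthrough clusters, 63 held an antisense or long noncoding RNA, 112 an uncharacterised partner and 232 fell in none of these kinds. The snoRNA and small RNA clusters were the brightest and the paralog clusters the dimmest. Shared clusters had a median log2 intensity of 5.58 in untreated cells, against 5.21 for clusters of 1 symbol and 4.12 for clusters of none. The background level was set at 5.82, below which 95% of the 23 background probe sets lay, and a cluster counted as above it when any group mean passed it. Of the shared clusters 741 did, or 48.0%, against 44.2% of clusters of 1 symbol and 20.9% of clusters of none. Among paralog clusters 211 of 634 did, with an untreated median of 4.51. Among snoRNA clusters 69 of 102 did (median 8.59), and among other small RNA clusters 38 of 45 (median 15.48), although these 45 held only 18 distinct profiles.

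**Figure D1:**
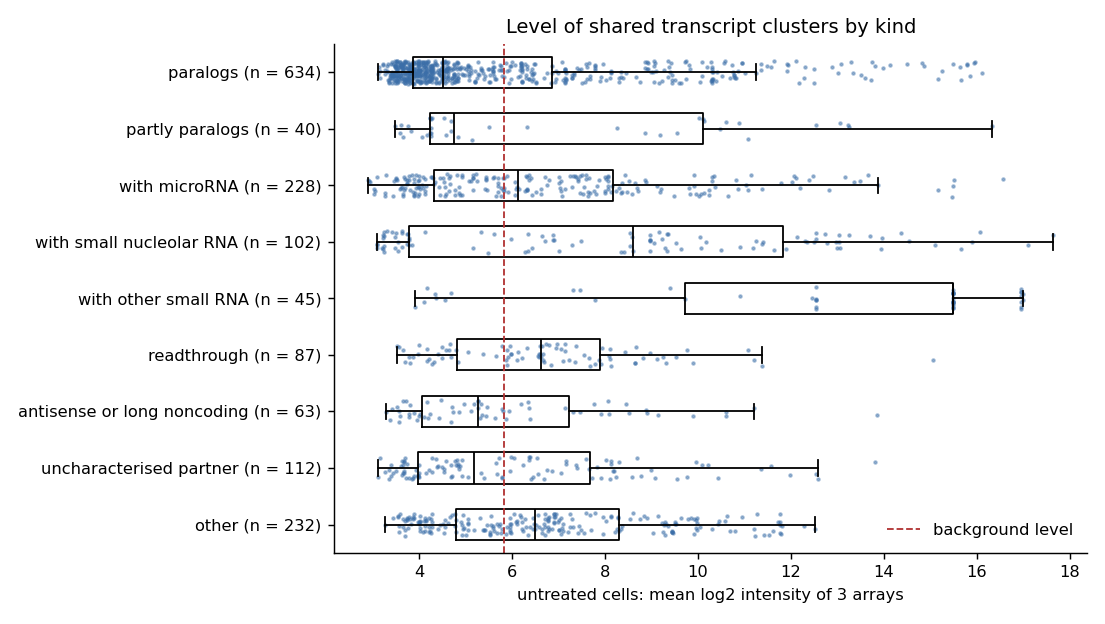
Untreated log2 intensity (horizontal axis, mean of 3 arrays) of the 1543 shared clusters by kind. Each point is a cluster, boxes give the quartiles and median, whiskers reach to 1.5 times the interquartile range, and the dashed line is the background level of 5.82. Paralog clusters lie mostly left of the line and clusters with other small RNA mostly right of it.

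The brightest shared cluster held HSPA8, the constitutive HSP70 chaperone, with SNORD14D and SNORD14C. It read 17.55, 17.68 and 17.68 in untreated cells, 17.70, 17.74 and 17.69 at 20 nM OA and 17.69, 17.68 and 17.68 at 60 nM OA. The next was RPS13, a protein of the small ribosomal subunit, with SNORD14B, at 17.09 ± 0.011 at 60 nM OA and 17.09 ± 0.011 in untreated cells (SD, n = 3 each). Both clusters overlapped between 60 nM OA and untreated cells. The 95% interval of the log2 fold change was -0.053 to 0.15 for the HSPA8 cluster and -0.076 to 0.077 for the RPS13 cluster. Several families of near-identical genes lay mostly at background. Of 74 clusters whose symbols open like those of cancer-testis antigens, which are normally silent outside the germ line and tumours, 2 were above it. Both listed MAGED4, MAGED4B and SNORA11D, at 6.44 and 6.70 in untreated cells, and belong to the list by the letters MAGE alone. None of 18 clusters with SNORD115 genes and none of 13 with SNORD116 genes were, both being snoRNA arrays of the imprinted region of chromosome 15 with expression known mainly from neurons. Of 24 olfactory receptor clusters 2 were above background, and of 4 protocadherin clusters 0. The UGT1A cluster, which holds the alternative first exons of the glucuronidation enzymes, read 3.79, 3.79 and 3.79 in untreated cells, 3.79, 3.69 and 3.85 at 20 nM OA and 3.78, 3.79 and 3.80 at 60 nM OA, and the PCDHA cluster 3.97 ± 0.0053 at 60 nM OA and 3.97 ± 0 in untreated cells (SD, n = 3 each).

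Before the comparisons, markers were checked in clusters of 1 symbol. Of 8 measured markers of noradrenergic neuroblastoma 1 was above background in untreated cells, GATA3 at 7.32, while TH (4.57) and DBH (4.22), which make noradrenaline, were not. Above background were 5 of 6 mesenchymal markers, among them VIM (11.51), 3 of 5 epithelial markers, among them KRT8 (13.34), 1 of 4 leukocyte markers, the lysosomal protein gene CD68, and 0 of 3 Schwann and glial markers. The same numbers of markers of each list were above background at 60 nM OA. CD68 had a mean of 9.31 at 60 nM OA and 7.43 in untreated cells, and PTPRC, which marks all leukocytes, was at background in both (3.64 and 3.65). Array medians ran from 4.30 to 4.45 on the log2 scale. The lowest correlation between arrays of a group was 0.993 across clusters. Untreated replicate 3 and 20 nM OA replicate 2 were left out together in one alternative. A score per array, the median of centred genes of chromosomes 16, 17, 19 and 22 minus that of chromosomes 4, 5, 13, 18 and X, moved with the groups. It was -0.029, -0.093 and -0.034 at 60 nM OA, against -0.014, 0.013 and 0.11 in untreated cells. These groups did not overlap in the score, and the score entered the fit as a covariate in one alternative.

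At 60 nM OA, 289 of the 1543 shared clusters differed from untreated cells, 105 higher and 184 lower (limma, adjusted p under 0.05 over all 67528 clusters). That is 18.7%, where 10.2% of all clusters and 17.6% of clusters of 1 symbol were called. Of all clusters 4.13% were called higher and 6.06% lower, and of clusters of 1 symbol 6.42% and 11.2%. Among shared clusters above background 258 of 741 were called, or 34.8%, 90 higher and 168 lower, where clusters of 1 symbol above background gave 35.7%, 12.5% higher and 23.2% lower. The share of shared clusters called was thus near that of clusters of 1 symbol above background. In 559 of the 1543 shared clusters every array at 60 nM OA lay on one side of the untreated arrays, a larger share than the 24.5% of all clusters. Above background were 48.0% of shared clusters and 29.7% of all clusters. The median log2 fold change was 0.0044 over shared clusters and 0.017 over all clusters. With each array shifted by its hybridisation controls 108 shared clusters were called, 53 higher and 55 lower. Under that shift the HSPA8 and SNHG1 clusters had the same SE, 0.23, against 0.043 and 0.15 in the main fit. A call could thus end under it with little change in log2 fold change. With the chromosome score as a covariate 140 were called, 64 higher and 76 lower, and without untreated replicate 2 188 were, 76 higher and 112 lower.

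The calls were also counted by kind of shared cluster, without a test between kinds. Of the 102 snoRNA clusters 27 were lower and 7 higher at 60 nM OA, and of the 87 readthrough clusters 17 were lower and 0 higher. Chromosome 6 and its alternate haplotypes repeat some loci among these clusters. The snoRNA clusters included 5 of SNHG32 with SNORD48 and SNORD52 and 6 of DDX39B with SNORD84. The readthrough clusters included 6 of MSH5 with SAPCD1. All of these repeated clusters had log2 fold changes below 0, so the counts are not of separate loci. Of the 45 clusters with other small RNA 12 were higher and 1 lower, which are 5 distinct profiles higher and 1 lower. MicroRNA clusters gave 19 higher and 34 lower of 228, and paralog clusters 36 higher and 45 lower of 634. The median log2 fold change was -0.11 for snoRNA clusters and -0.0077 for readthrough clusters, the second being above 0 under the shift by hybridisation controls. It was 0.023 for paralog clusters, with the sign turning under quantile normalization and under equal array medians. These counts stand beside 4.13% of all clusters higher and 6.06% lower, and 12.5% and 23.2% of clusters of 1 symbol above background. When the chromosome score was a covariate, snoRNA clusters gave 3 lower and 2 higher, readthrough clusters 9 lower, microRNA clusters 15 lower and 15 higher, and paralog clusters 17 lower and 15 higher. Under the shift by hybridisation controls the counts were 2 lower and 3 higher for snoRNA, 7 lower for readthrough, 10 lower and 11 higher for microRNA and 19 lower and 20 higher for paralog clusters, and 1 lower and 2 higher for other small RNA.

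**Figure D2:**
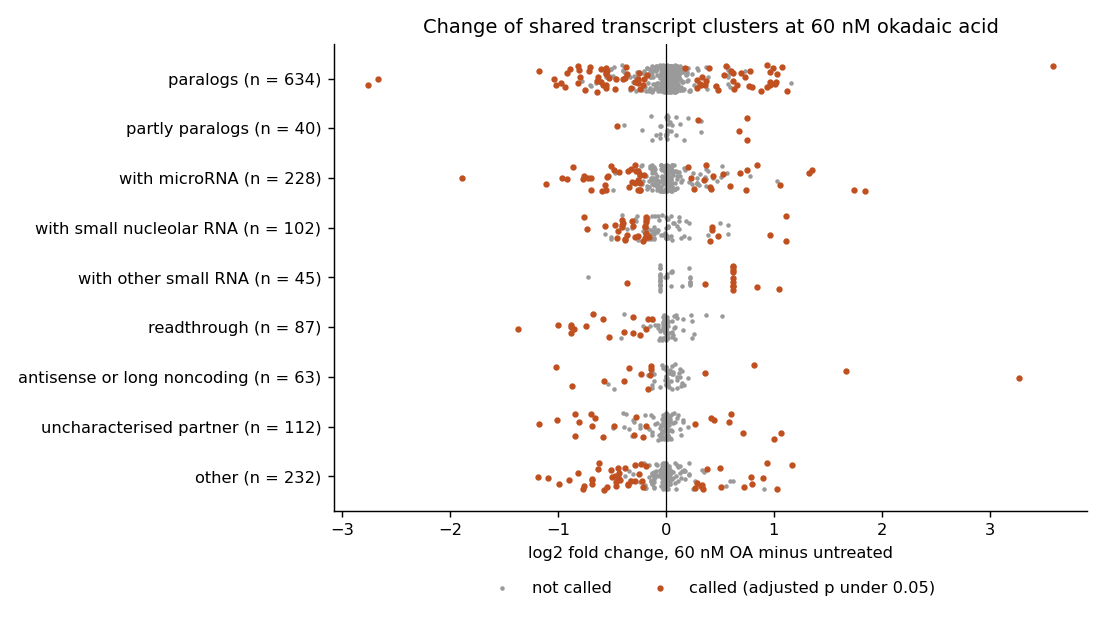
Log2 fold change at 60 nM OA minus untreated (horizontal axis) of the 1543 shared clusters by kind. Each point is a cluster, orange where called by limma at an adjusted p under 0.05 and grey otherwise. The 2 points at the far left are H4 clusters, and the 2 beyond 3 at the right are those of RFPL4A with RFPL4AL1 and of LINC00673 with LINC00511.

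The cluster of RFPL4A and RFPL4AL1, neighbouring copies on chromosome 19 that encode RING finger proteins known in mouse from oocytes, rose most. It read 3.88, 3.85 and 3.70 in untreated cells, 3.94, 3.87 and 4.15 at 20 nM OA and 7.61, 7.30 and 7.30 at 60 nM OA (log2 fold change 3.59, SE 0.11, adjusted p = 4.61e-06). All 3 arrays at 60 nM OA were above background and the others lay below it, so the 12-fold rise starts from readings below background. The cluster of RFPL4AL1 alone read 3.60, 3.36 and 3.47 in untreated cells, 3.81, 3.53 and 3.82 at 20 nM OA and 7.98, 7.40 and 7.77 at 60 nM OA (log2 fold change 4.24, SE 0.15, adjusted p = 9.67e-06). It followed the same order, with the 3 arrays at 60 nM OA apart from the rest.

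LINC00673 and LINC00511, long noncoding RNA genes next to each other on chromosome 17, shared the cluster that rose second most. It read 5.63, 5.93 and 5.81 in untreated cells, 6.25, 6.25 and 6.08 at 20 nM OA and 9.17, 8.84 and 9.18 at 60 nM OA (log2 fold change 3.28, SE 0.11, adjusted p = 7.79e-06). The groups did not overlap, and the arrays at 20 nM OA lay between them without a call (log2 fold change 0.40, SE 0.11, adjusted p = 0.853). The cluster that lists LINC00511 alone stayed below background, at 3.54, 3.59 and 3.57 at 60 nM OA, against 3.54, 3.49 and 3.55 in untreated cells. Its difference was not called (log2 fold change 0.041, SE 0.048, adjusted p = 0.766).

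The mitochondrial superoxide dismutase gene SOD2 and its overlapping transcript SOD2-OT1 were listed by 2 clusters. One read 8.53, 8.38 and 8.43 in untreated cells, 8.27, 8.62 and 8.51 at 20 nM OA and 10.16, 10.003 and 10.19 at 60 nM OA (log2 fold change 1.67, SE 0.096, adjusted p = 6.71e-05). Its 3 arrays at 60 nM OA stood above all others. The other read 5.92, 6.06 and 5.61 at 60 nM OA, against 6.22, 6.25 and 6.56 in untreated cells and was not called (log2 fold change -0.48, SE 0.13, adjusted p = 0.0661). The gap between the log2 fold changes of the 2 clusters was 2.15, so the same pair of symbols stood for a strong rise at one place and for lower values at another.

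Several clusters that pair a host gene with a microRNA were among those that rose most. The cluster of NHERF1, a scaffold protein below the plasma membrane, and MIR3615 read 9.92, 9.54 and 10.17 at 60 nM OA, against 8.06, 8.12 and 8.24 in untreated cells (log2 fold change 1.74, SE 0.15, adjusted p = 3.70e-04). MYLIP, the ubiquitin ligase of the LDL receptor, and MIR4639 shared a cluster at 9.39, 9.18 and 9.48 at 60 nM OA, against 7.96, 8.03 and 7.99 in untreated cells (log2 fold change 1.36, SE 0.084). CCNYL1, a cyclin Y-like gene, and MIR4775 read 9.67, 9.39 and 9.66 at 60 nM OA, against 8.20, 8.26 and 8.27 in untreated cells (log2 fold change 1.33, SE 0.078). In all 3 clusters the arrays at 60 nM OA lay above those of untreated cells with a gap. The cluster of OSBPL6, an oxysterol-binding protein, listed MIR548N and rose by 1.85 (SE 0.12), to 9.85 ± 0.043 at 60 nM OA, against 8.001 ± 0.20 in untreated cells. RefSeq places MIR548N on chromosome 7 and the cluster ID on chromosome 2. FZD8, a Wnt receptor, with MIR4683 rose by 1.06 (SE 0.17). The sequences of miR-3615, miR-4639, miR-4775 and miR-4683 are printed above, and these values do not separate a microRNA from its host.

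In the other direction, the cluster of CBX5, the heterochromatin protein HP1 alpha, and MIR3198-2 read 12.63, 12.60 and 12.21 in untreated cells, 11.87, 12.05 and 11.87 at 20 nM OA and 10.75, 10.64 and 10.39 at 60 nM OA (log2 fold change -1.89, SE 0.13, adjusted p = 1.65e-04). The 3 groups were ordered by dose without overlap, and the step at 20 nM OA was not called (adjusted p = 0.69, limma). MIR3198-1, the second locus of miR-3198, had a cluster of its own on chromosome 22, which read 6.01, 5.86 and 5.92 at 60 nM OA, against 8.53, 8.38 and 8.06 in untreated cells (log2 fold change -2.40, SE 0.29, adjusted p = 0.0019). HAUS4, a subunit of the augmin complex of the mitotic spindle, and MIR4707 fell by 1.11 on the log2 scale (SE 0.11), and NDUFS8, a subunit of respiratory complex I, with MIR4691 fell by 0.96 (SE 0.10).

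The classic microRNA genes gave other values. The MIR17HG cluster read 6.88, 6.91 and 6.88 at 60 nM OA, against 6.95, 6.95 and 7.24 in untreated cells (log2 fold change -0.16, SE 0.077, adjusted p = 0.321). The arrays at 60 nM OA were just below the lowest untreated array, and the difference was not called. The cluster of MIR23A, MIR27A and MIR24-2 was below background, at 5.54 ± 0.066 at 60 nM OA and 5.44 ± 0.051 in untreated cells (95% interval of the log2 fold change -0.17 to 0.37). VMP1, a protein of autophagosome formation that overlaps the MIR21 gene, shared a bright cluster with it at 13.89, 13.88 and 14.02 at 60 nM OA, against 13.41, 13.74 and 13.78 in untreated cells (log2 fold change 0.28, SE 0.11, adjusted p = 0.176), while the cluster of MIR21 alone lay at background. MIR22HG with MIR22 rose by 0.69 (SE 0.061, adjusted p = 4.34e-04, limma), all arrays being below background. The cluster of DDX5, an RNA helicase, with MIR3064 and MIR5047 rose by 0.41 (SE 0.042), to 15.57 ± 0.044 at 60 nM OA, against 15.16 ± 0.010 in untreated cells. The cluster of MIR5047 alone went the other way, at 12.05, 11.96 and 11.92 at 60 nM OA, against 12.61, 12.39 and 12.51 in untreated cells (log2 fold change -0.52, SE 0.063, adjusted p = 0.00185).

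**Figure D3:**
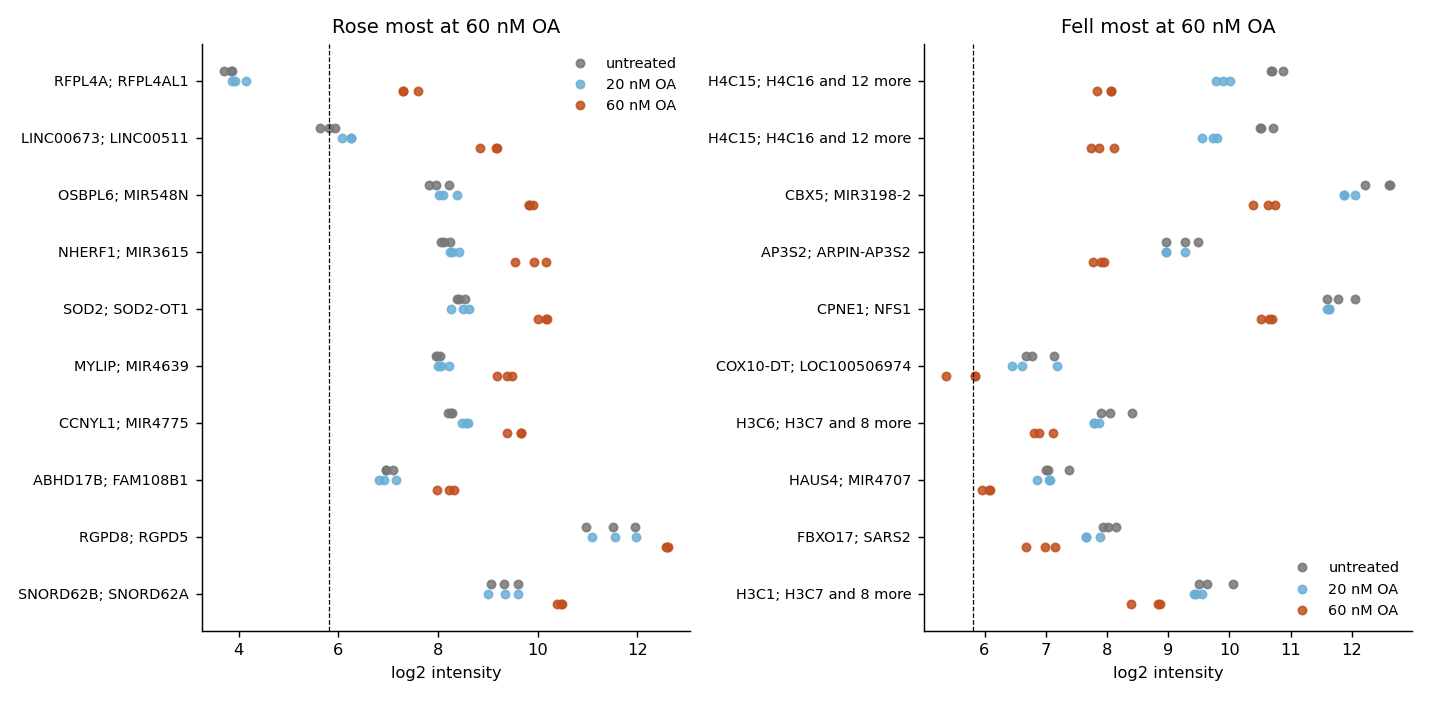
Log2 intensity (horizontal axis) on each of the 9 arrays for the 10 shared clusters that rose most and the 10 that fell most at 60 nM OA against untreated. Points are single arrays, coloured by dose, and the dashed line is the background level of 5.82. In each of these clusters the 3 arrays at 60 nM OA lie apart from the 3 untreated arrays, as the choice of clusters required.

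Histone clusters were lower wherever they were called. Of 43 clusters with a histone gene, 32 were above background, 14 were lower at 60 nM OA and 0 were higher, where 6.06% of all clusters and 23.2% of 1-symbol clusters above background were lower. Their median log2 fold change was -0.46, and that of all clusters 0.017. All the calls were among replication-dependent genes, which supply nucleosomes to newly copied DNA: 5 of 13 H4 clusters, 5 of 13 H3, 3 of 7 H2A and 1 of 3 H2B. The 2 clusters of H3.3, the variant made throughout the cell cycle, had log2 fold changes of 0.021 and 0.095 and were not called. With the chromosome score as a covariate 10 histone clusters were lower and 0 higher, and the median was -0.16. Without untreated replicate 3 and 20 nM OA replicate 2 12 were lower.

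The 13 H4 clusters all listed the same 14 symbols. The nucleosome protein H4 is encoded by many separate genes with nearly the same coding sequence. The 2 clusters with an ID on chromosome 1, where H4C14 and H4C15 lie, fell most of all shared clusters. One read 10.67, 10.70 and 10.87 in untreated cells, 10.001, 9.78 and 9.90 at 20 nM OA and 8.07, 7.83 and 8.07 at 60 nM OA (log2 fold change -2.76, SE 0.091, adjusted p = 6.44e-06), a 6.77-fold fall. The other read 10.51, 10.52 and 10.70 in untreated cells, 9.80, 9.56 and 9.73 at 20 nM OA and 7.88, 7.73 and 8.12 at 60 nM OA (log2 fold change -2.67, SE 0.11, adjusted p = 1.73e-05). In both the 3 groups were ordered by dose with no overlap. These were also the clusters nearest to a call at 20 nM OA against untreated cells, with log2 fold changes of -0.86 (SE 0.091, limma adjusted p = 0.0577) and -0.88 (SE 0.11, adjusted p = 0.13).

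The H4 clusters with an ID on chromosome 6 had log2 fold changes nearer to 0, a gap that was not tested. The one that lists H4C8 first read 9.69, 9.55 and 9.93 at 60 nM OA, against 10.76, 10.62 and 10.84 in untreated cells (log2 fold change -1.01, SE 0.12, adjusted p = 0.00158), with all arrays at 60 nM OA below all untreated arrays. The one that lists H4C5 first read 12.33, 12.28 and 12.38 at 60 nM OA, against 12.69, 12.82 and 13.11 in untreated cells (log2 fold change -0.54, SE 0.099, adjusted p = 0.0126), again without overlap. The one that lists H4C4 first had a log2 fold change of -0.71 (SE 0.17, adjusted p = 0.0362). The bright cluster with H4C15 first but an ID on chromosome 6 read 12.16 ± 0.078 at 60 nM OA and 12.49 ± 0.20 in untreated cells and was not called (log2 fold change -0.33, SE 0.10, adjusted p = 0.11), nor was the one on chromosome 12, where H4C16 lies, which was at background. H4C3 had a cluster of its own, at 16.03, 16.01 and 16.18 at 60 nM OA, against 16.19, 16.28 and 16.48 in untreated cells (log2 fold change -0.25, SE 0.082, adjusted p = 0.126). It was the brightest H4 reading and its arrays did not overlap, by a small margin and without a call. The range of log2 fold changes over H4 clusters above background was 2.54.

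The 9 clusters that list the same 10 H3 genes ranged from -1.18 to 0.098. The lowest, with H3C6 first, read 7.12, 6.82 and 6.89 at 60 nM OA, against 7.90, 8.04 and 8.41 in untreated cells (log2 fold change -1.18, SE 0.13, adjusted p = 0.00137), and the cluster with H3C1 first read 8.83, 8.39 and 8.87 at 60 nM OA, against 9.51, 9.64 and 10.06 in untreated cells (log2 fold change -1.04, SE 0.17, adjusted p = 0.00743). Both were apart from untreated cells, and the call of the second ended in a fit of only the 6 arrays compared. The cluster of H2AC19 and H2AC18, whose promoters are nearly identical, was among the brightest, at 14.58, 14.52 and 14.70 at 60 nM OA, against 15.22, 15.50 and 15.76 in untreated cells (log2 fold change -0.89, SE 0.14, adjusted p = 0.00542). A cluster of 6 H2A genes with H2AC11 first read 10.63, 10.70 and 10.77 at 60 nM OA, against 11.50, 11.62 and 11.79 in untreated cells (log2 fold change -0.94, SE 0.080, adjusted p = 3.67e-04). The replication-dependent H2B clusters had log2 fold changes of -0.56 to -0.46, with the 1 call below background.

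**Figure D4:**
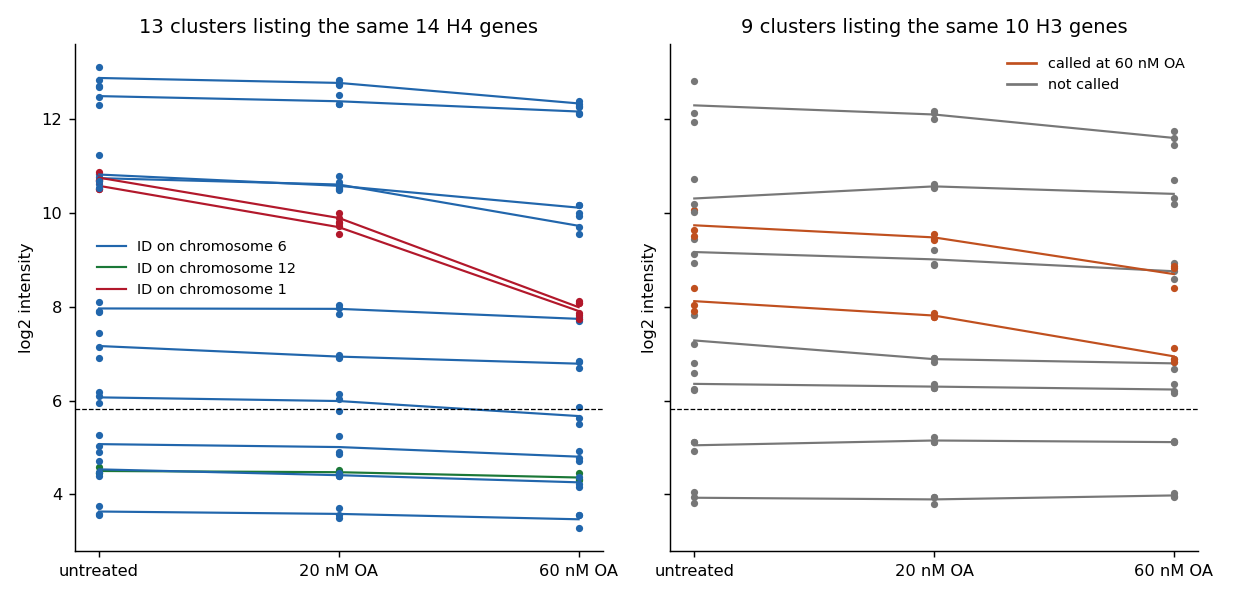
Log2 intensity (vertical axis) by dose for the 13 clusters that list the same 14 H4 genes (left, coloured by the chromosome in the cluster ID) and the 9 clusters that list the same 10 H3 genes (right, coloured by the call at 60 nM OA against untreated). Points are arrays, lines join the means of 3 arrays and the dashed line is the background level. The chromosome 1 pair of H4 clusters fell to 7.91 and 7.99 at 60 nM OA, against 10.58 and 10.75 in untreated cells, while the other H4 lines run nearly flat or fall less.

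Clusters with genes of U1, U2 and U7, small nuclear RNAs that act in RNA processing, were higher. The 9 clusters with U1 genes, whose RNA pairs with the splice donor site, held 2 distinct profiles and all rose. The first read 17.70, 17.48 and 17.53 at 60 nM OA, against 16.76, 16.995 and 17.09 in untreated cells (log2 fold change 0.62, SE 0.091, adjusted p = 0.00442), the second 17.70, 17.52 and 17.58 at 60 nM OA, against 16.78, 17.01 and 17.17 in untreated cells (log2 fold change 0.62, SE 0.095, adjusted p = 0.00577). All arrays at 60 nM OA were above all untreated arrays, and the calls ended when each array was shifted by its hybridisation controls, at a median of 0.63. WDR74 with the U2 genes RNU2-2 and RNU2-1 rose by 0.84 (SE 0.13, adjusted p = 0.00662). C12orf57 with RNU7-1, the gene of the U7 RNA that directs the processing of histone transcripts, read 8.77, 8.66 and 9.09 at 60 nM OA, against 7.63, 7.79 and 7.96 in untreated cells (log2 fold change 1.05, SE 0.14, adjusted p = 0.0027). The arrays at 60 nM OA were again higher without overlap. The 7 U6 clusters, with 2 profiles, had a log2 fold change of 0.22 and were not called (adjusted p = 0.181), and the single profile of the 16 clusters of 5S ribosomal RNA had -0.057 (95% interval -0.38 to 0.27). The cluster of RNA5-8SN5, a gene of the 5.8S ribosomal RNA, with an uncharacterised partner fell by 0.84 (SE 0.066), to 11.70 ± 0.084 at 60 nM OA, against 12.54 ± 0.10 in untreated cells.

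Of 26 ribosomal protein clusters 25 were above background, 9 were lower and 0 higher, where 23.2% of 1-symbol clusters above background were lower and 12.5% higher. Of the 20 that pair a ribosomal protein gene with a snoRNA in its introns 7 were lower, with a median log2 fold change of -0.24 over the 20. RPL7A with SNORD24 and 3 SNORD36 genes read 13.76, 13.75 and 13.91 at 60 nM OA, against 14.36, 14.52 and 14.73 in untreated cells (log2 fold change -0.73, SE 0.096, adjusted p = 0.00278). RPL23A with SNORD42B, SNORD4A and SNORD42A read 11.85, 11.74 and 11.94 at 60 nM OA, against 12.23, 12.32 and 12.34 in untreated cells (log2 fold change -0.46, SE 0.064, adjusted p = 0.00374), and RPL13A with SNORD35A and others had a log2 fold change of -0.48 (adjusted p = 0.0178), a call that ended without 60 nM OA replicate 1 or 2. In all 3 the groups did not overlap. RPLP2 with SNORA52 and RPL5 with SNORD21 and SNORA66 had log2 fold changes of -0.044 and -0.0021 and were not called. With the chromosome score as a covariate, 1 of the 26 was lower, and the calls of RPL23A, RPL13A and RPL36A ended. A shift by hybridisation controls also left 1.

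The snoRNA host genes, spliced noncoding genes whose introns carry snoRNAs, gave calls in both directions. Of 25 clusters 18 were above background, 8 were lower and 2 higher, where 23.2% of 1-symbol clusters above background were lower and 12.5% higher. Fitting the chromosome score as a covariate left 2 lower and 1 higher, and the median log2 fold change was 0.0012 in place of -0.069. Under the shift by hybridisation controls 1 was lower and 1 higher. GAS5, a growth-arrest transcript that hosts box C/D snoRNAs, read 11.77, 11.63 and 11.78 at 60 nM OA, against 12.32, 12.48 and 12.65 in untreated cells (log2 fold change -0.76, SE 0.088, adjusted p = 0.00154). SNHG32 with SNORD48 and SNORD52 was listed by 5 of the 25 clusters, on chromosome 6 and its alternate haplotypes, all lower, with log2 fold changes of -0.44 to -0.40. These 5 are copies of 1 locus with 3 distinct profiles, so the counts of host clusters are not of separate loci. SNHG12 read 9.47, 9.45 and 9.71 at 60 nM OA, against 8.33, 8.70 and 8.72 in untreated cells (log2 fold change 0.96, SE 0.11, adjusted p = 0.00163) and was higher on every array at 60 nM OA. SNHG5 was higher too (0.41, SE 0.094). SNHG1, whose introns hold a row of box C/D snoRNAs, read 12.05, 11.79 and 12.09 at 60 nM OA, against 12.11, 12.22 and 12.68 in untreated cells (log2 fold change -0.36, SE 0.15, adjusted p = 0.226), without overlap and without a call. SNORD62B and SNORD62A, a snoRNA pair with no host in the list, rose by 1.11 (SE 0.18), a call that ended with the chromosome score as a covariate.

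Clusters of recent duplications on chromosomes 16 and 2 were mostly higher. The NPIP genes, a primate family spread over chromosome 16, and the RGPD genes of chromosome 2, copies of the nuclear pore protein RANBP2 with a GRIP domain, gave 15 of 17 clusters higher and 0 lower, with a median log2 fold change of 0.68, where 12.5% of 1-symbol clusters above background were higher. All 12 NPIP clusters were above background and 10 were higher. NPIPA8 with PKD1P6 read 13.38, 13.21 and 13.33 at 60 nM OA, against 12.57, 12.38 and 12.59 in untreated cells (log2 fold change 0.79, SE 0.11, adjusted p = 0.00311). The cluster of NPIPA5, NPIPA2, NPIPA3 and PKD1P1 read 14.003, 13.95 and 14.04 at 60 nM OA, against 13.31, 13.10 and 13.32 in untreated cells (log2 fold change 0.75, SE 0.087, adjusted p = 0.0015). The arrays at 60 nM OA lay close together above the untreated arrays. NPIPB3 under 2 of its names was called at 0.36 from an untreated mean of 16.1. With the chromosome score as a covariate 5 of the 12 NPIP clusters were called, under a shift by hybridisation controls 4 and with equal array medians 6. Quantile normalization kept 10.

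The 5 RGPD clusters had log2 fold changes of 0.88 to 1.12 with adjusted p of 0.0379 to 0.0468 (limma). RGPD8 with RGPD5 read 11.95, 11.51 and 10.97 in untreated cells, 11.10, 11.97 and 11.54 at 20 nM OA and 12.61, 12.59 and 12.57 at 60 nM OA. The untreated arrays and those at 20 nM OA spread widely, while the 3 arrays at 60 nM OA lay close together above all of them. The call of RGPD8 with RGPD5 ended under 12 alternatives and held under 9. It ended with equal array medians, and without untreated replicate 2 (log2 fold change 1.14) or 3 (0.87), 20 nM OA replicate 3 (1.12) or any one array at 60 nM OA (1.11 to 1.13). No RGPD cluster was called with the chromosome score as a covariate or with equal array medians, while all 5 were under quantile normalization and under the shift by hybridisation controls. RGPD3 and RGPD4, which had clusters of their own, had log2 fold changes of 1.02 and 1.01 and missed the threshold (adjusted p = 0.0616 and 0.0696).

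Other families of duplicates gave smaller sets. Of 14 clusters with GOLGA genes, golgin copies of chromosome 15, 9 were above background, 6 were higher and 0 lower, where 12.5% of 1-symbol clusters above background were higher. Fitting the chromosome score left 1 higher, with 0 under the shift by hybridisation controls, 3 under equal array medians and 2 without untreated replicate 3 and 20 nM OA replicate 2. The cluster with GOLGA6L9 first had a log2 fold change of 0.62 (SE 0.13), and its call ended under 8 alternatives, among them leaving out untreated replicate 2 or 3 and 60 nM replicate 1 or 3. GPR89A, GPR89B and GPR89C, which encode the Golgi pH regulator, had 2 clusters, both higher. The one with all 3 read 11.33, 11.27 and 11.30 at 60 nM OA, against 10.41, 10.25 and 10.20 in untreated cells (log2 fold change 1.01, SE 0.069, adjusted p = 1.36e-04), with every array at 60 nM OA above the untreated ones. GPR89C alone rose by 0.96 (SE 0.077). Of 5 ANKRD20A clusters 4 were higher, near background, with ANKRD20A1 and ANKRD20A3P at 6.60 ± 0.093 at 60 nM OA and 5.63 ± 0.29 in untreated cells, a call that ended with the chromosome score as a covariate. NUDT4 and NUDT4B, phosphohydrolases of inositol pyrophosphates, read 10.69, 10.62 and 10.63 at 60 nM OA, against 9.56, 9.63 and 9.68 in untreated cells (log2 fold change 1.02, SE 0.039, adjusted p = 1.24e-05), the tightest of the named rises. GTF2IP1 and GTF2IP4, pseudogene copies of the Williams region gene GTF2I, fell by 0.61 (SE 0.099), a call that ended with the chromosome score as a covariate.

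Many duplicated families gave 0 calls at 60 nM OA against untreated cells by limma. The 7 clusters of the survival motor neuron region were bright, and SMN1 with SMN2, which encode the assembly factor of spliceosomal particles, read 10.81, 10.84 and 10.81 at 60 nM OA, against 10.81, 10.81 and 10.68 in untreated cells (95% interval of the log2 fold change -0.049 to 0.16). The 10 NBPF clusters had log2 fold changes of 0.026 to 0.17, and the 4 speedy clusters 0.029 to 0.084. The 6 HLA clusters had -0.087 to -0.043. At an unadjusted p under 0.05, 0 of the survival motor neuron, NBPF, speedy and HLA clusters passed.

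HSPA1A and HSPA1B, the stress-inducible HSP70 genes, shared 6 clusters on chromosome 6 and its haplotypes. They were called in no comparison with untreated cells, but all 6 were lower at 60 nM OA than at 20 nM OA. The cluster with HSPA1B first read 15.67, 15.84 and 16.02 in untreated cells, 16.25, 16.46 and 16.19 at 20 nM OA and 15.63, 15.50 and 15.56 at 60 nM OA. The arrays at 20 nM OA were the highest and those at 60 nM OA the lowest. The log2 fold change was -0.74 at 60 nM against 20 nM OA (SE 0.10, limma adjusted p = 0.00502), 0.46 at 20 nM OA against untreated (adjusted p = 0.602) and -0.28 at 60 nM OA against untreated (adjusted p = 0.178).

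Of the 87 readthrough clusters 61 were above background, and the 17 that were lower stand beside 23.2% lower among 1-symbol clusters above background. AP3S2, a subunit of the AP-3 sorting adaptor, with ARPIN-AP3S2 read 7.94, 7.78 and 7.89 at 60 nM OA, against 8.96, 9.27 and 9.49 in untreated cells (log2 fold change -1.37, SE 0.14, adjusted p = 8.89e-04). Among neighbours with no readthrough symbol, the cluster of CPNE1, a calcium-binding copine, and NFS1, the cysteine desulfurase of iron-sulfur cluster assembly, read 10.70, 10.51 and 10.65 at 60 nM OA, against 11.59, 11.78 and 12.04 in untreated cells (log2 fold change -1.18, SE 0.11, adjusted p = 5.18e-04). In both all arrays at 60 nM OA were below all untreated arrays. NFS1 alone read 9.17, 9.12 and 9.10 at 60 nM OA, against 9.13, 9.20 and 9.22 in untreated cells and was not called (log2 fold change -0.052, SE 0.036, adjusted p = 0.529). The neighbours FBXO17, an F-box gene, and SARS2, the mitochondrial seryl-tRNA synthetase, shared a cluster that fell by 1.09 (SE 0.13), while SARS2 alone had -0.20 (adjusted p = 0.163). MSH5, a MutS homologue of meiotic recombination, and its readthrough with SAPCD1 were listed by 7 clusters of chromosome 6 and its haplotypes, all lower, and the one on chromosome 6 itself read 7.14, 6.97 and 6.96 at 60 nM OA, against 8.0001, 7.83 and 7.79 in untreated cells (log2 fold change -0.85, SE 0.095, adjusted p = 0.0013). The 8 clusters with DDX39B, an RNA helicase of splicing and export, were all lower by a small step, -0.19 to -0.18. COX10-DT with an uncharacterised partner fell by 1.18 (SE 0.23), a call that ended without 60 nM OA replicate 3.

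The counts of the smaller sets stand beside 10.2% of all clusters and 17.6% of 1-symbol clusters called. Of 6 HOX clusters, homeobox genes that pattern the body axis, 5 were lower, and the 6 log2 fold changes ran from -0.34 to -0.080. Both clusters of LRRC37A copies of chromosome 17 were lower, with log2 fold changes of -0.72 and -0.63. Both FRG2 clusters were higher, with 0.96 and 0.99, at untreated levels below background. All 11 clusters of USP17L deubiquitinase copies were below background, held 6 distinct profiles and gave 3 calls, all higher. Of 18 clusters whose symbols open like those of mitochondrial genes 3 were lower, among them COX10-DT with its uncharacterised partner, and 0 higher. Of 32 zinc finger clusters 1 was higher and 1 lower, and of 4 tubulin clusters 1 was higher. Clusters with FAM names, given to families of unknown function, gave 6 higher and 8 lower of 69 (20.3%), a share near that of 1-symbol clusters.

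Pairs of an old and a current name gave values of a single gene, with 14 of 246 higher and 30 lower. These shares are near those of clusters of 1 symbol, of which 6.42% were higher and 11.2% lower. ABHD17B, a depalmitoylating enzyme once named FAM108B1, read 8.33, 7.97 and 8.22 at 60 nM OA, against 7.10, 6.95 and 6.96 in untreated cells (log2 fold change 1.17, SE 0.12, adjusted p = 7.37e-04). DNPH1, a nucleotide hydrolase once named C6orf108, read 8.90, 8.96 and 8.94 at 60 nM OA, against 9.87, 9.94 and 10.03 in untreated cells (log2 fold change -1.01, SE 0.052, adjusted p = 4.02e-05). Both pairs of groups were apart. PBDC1 (CXorf26) rose by 1.06, UBALD2 (FAM100B) by 1.03, and DPH6 (ATPBD4), an enzyme of diphthamide synthesis, fell by 0.99 on the log2 scale.

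Clusters of 1 symbol were set beside shared clusters that list the same gene. Such partners existed for 392 shared clusters, in 650 pairs. In 65 pairs the shared cluster was called and its partner was above background, and in 42 of these the partner was called too, 41 in the same direction and 1, MIR5047 beside DDX5, in the other. Of all 1-symbol clusters above background 35.7% were called. The pairs are not separate, since the 82 pairs with a called shared cluster came from 68 shared clusters. Among symbol sets on several clusters above background with different values, 33 of 47 differed in log2 fold change by less than 0.1, with a median range of 0.030. Some of these sets, such as PRRC2A with BAT2 and BAG6 with BAT3, include alternate-haplotype copies of the same locus. A small range there is not agreement between separate loci. In 4 of the 47 the range passed 0.5: the H4 set (2.54), SOD2 with SOD2-OT1 (2.15), the H3 set (1.27) and KCTD7 with RABGEF1 (0.91).

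**Figure D5:**
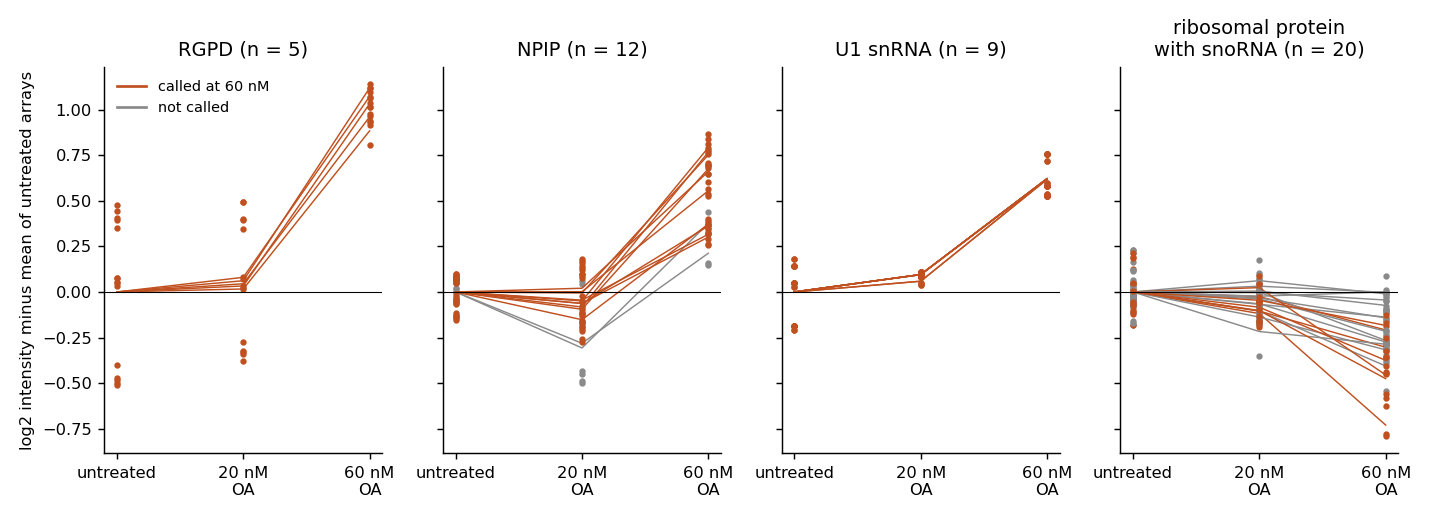
Log2 intensity minus the mean of the untreated arrays (vertical axis) by dose for clusters of 4 families. Points are arrays, lines join the means of 3 arrays, and colour gives the call at 60 nM OA against untreated. At 60 nM OA the RGPD, NPIP and U1 means lie above 0 and nearly all means of the ribosomal protein clusters with snoRNAs lie at or below it. The untreated RGPD points spread more widely than those at 60 nM OA.

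At 20 nM OA, 0 of the 1543 shared clusters were called against untreated cells by limma, where 0.0355% of all clusters were. An unadjusted p under 0.05 was reached by 72, and the arrays did not overlap for 89, where 6.16% of all clusters did not. Under the alternatives 0 to 2 were called, and the clusters called were the H4 pair with an ID on chromosome 1. In a fit of clusters above background both were called, with adjusted p of 0.0262 and 0.0478. The median log2 fold change over shared clusters was -0.0010.

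At 60 nM OA against 20 nM OA, 232 shared clusters were called, 89 higher and 143 lower, where 8.61% of all clusters were, 3.9% higher and 4.71% lower. The arrays did not overlap for 506 of the 1543, a larger share than the 21.8% of all clusters. Under the shift by hybridisation controls 126 were called, 19 higher and 107 lower, and with the chromosome score as a covariate 148, 70 higher and 78 lower. This comparison and that with untreated cells share the arrays at 60 nM OA. The clusters that changed most were RFPL4A with RFPL4AL1 (3.41, SE 0.11), LINC00673 with LINC00511 (2.87, SE 0.11) and the H4 pair of chromosome 1 (-1.90, SE 0.091, and -1.79, SE 0.11). Of 43 histone clusters 9 were lower and 0 higher, and of 87 readthrough clusters 13 were lower and 0 higher. All 9 U1 clusters were higher. The 6 clusters of HSPA1A and HSPA1B were called here and not against untreated cells. Without 60 nM OA replicate 2 142 were called, without 20 nM OA replicate 1 146 and without 60 nM OA replicate 3 153.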

How the data were processed

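RNA of 9 samples was hybridised to 1-colour arrays. The authors deposited a table of 70523 probe sets as linear intensity values (median 21.8), summarised with RMA per the submitters' processing notes. The version and genome build are not given in any source used here. On reading, these deposited intensity values were put on the log2 scale, and no further normalization was applied. Gene symbols came from the platform annotation and were matched to RefSeq (GRCh38.p14).

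The 3 contrasts were fitted by limma 3.58.1, with lmFit and eBayes under R 4.3.3, over all 67528 TC clusters and 9 arrays, and a cluster was called at a Benjamini-Hochberg adjusted p under 0.05. The fit was tested on simulated data. Intervals are 95% intervals of that fit. The number of arrays limits the precision. Among the shared clusters 843 had values repeated between arrays to 4 decimals, and a fit without such clusters was an alternative.

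The members, gene lists and tests were chosen with earlier results of these data known. Clusters were named by a rule. It took the 10 largest called rises and falls against untreated cells without overlap and above background (5 and 5 for 60 nM against 20 nM), up to 4 clusters of smallest p in each family and kind, the 10 brightest, the 10 with most symbols, and a list of genes. Outside this rule, and chosen after their values were seen, were the second SOD2 cluster, those of FZD8, DDX5, WDR74, RPLP2, RPL5, SNHG5, U6, NPIPB3, H2AC19 and GPR89, all H4 and H3 clusters beyond the largest falls, all RGPD clusters beyond RGPD8 with RGPD5, and the sets of MSH5, DDX39B, SNHG32, ANKRD20A, HOX, LRRC37A, FRG2, SNORD115 and SNORD116.

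The alternatives were quantile normalization, equal array medians, a shift by 4 hybridisation controls, log2 of the value plus 16, fits of clusters above background, with a symbol or without repeated values, a fit of the 6 arrays compared, an intensity trend with a robust prior, a replicate block, the chromosome score as a covariate and leaving out arrays. Clusters of 2 or more current genes were also counted alone. Counting identical values once and leaving out alternate haplotypes were chosen after seeing the data. Levels of Y-linked genes are not reported.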

Additional observations from a re-analysis of the deposited data

How the results depend on the processing

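Against untreated cells, 289 shared clusters were called at 60 nM OA. A shift by hybridisation controls left 108 and the chromosome score as a covariate left 140 (64 higher, 76 lower). The cause was not tested. Leaving out 1 array gave 188 to 297, the lowest without untreated replicate 2. Counting identical values once gave 271 (97 higher, 174 lower) and keeping clusters of 2 or more current genes 245 (91 higher, 154 lower). Leaving out alternate haplotypes gave 253, 104 higher and 149 lower, where all shared clusters gave 105 higher and 184 lower. At 20 nM OA against untreated cells, where 0 were called, the fit of clusters above background called 2. The fits of clusters with a symbol, of clusters without repeated values and with the chromosome score each called 1. At 60 nM OA against 20 nM OA, 232 became 126 under the shift by hybridisation controls (19 higher, 107 lower), 148 with the chromosome score and 142 to 254 on leaving out 1 array. That shift moved the median of all clusters by 0.29 at 20 nM OA against untreated and by -0.28 at 60 nM against 20 nM OA, and changes under it are relative to that. It also raised the SE of clusters such as that of HSPA8, so a lost call need not mean a smaller log2 fold change.

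The replicate numbers of the groups are shared, but same-numbered arrays did not deviate together. The correlations of their deviations ran from -0.43 to 0.11, and those of other pairs from -0.42 to 0.49. With the replicate block 203 shared clusters were called at 60 nM OA against untreated, 0 at 20 nM OA against untreated and 137 at 60 nM against 20 nM OA.

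Of 61 clusters followed through the alternatives 49 were called at 60 nM OA against untreated, 35 of them under every alternative, and 0 of the 49 turned direction. Many of the 61 were named for large changes or small p in these same data. The kept calls therefore do not measure how well calls of shared clusters hold in general. The shift by hybridisation controls ended 9 of these calls, the chromosome score 8 and the fit of the 6 arrays compared 4. The calls of RNU1-1, RNVU1-9, NPIPA5 and SNHG32 (SNORD48) ended only under the shift, and those of SNORD62B and ANKRD20A1 only with the score. The values that turned sign were not called where they turned, and of their clusters 1 was called under another alternative, that of HSPA1A first under quantile normalization (-0.22, adjusted p = 0.0482). The HSPA8 cluster had -0.017 under quantile normalization. The RPS13 cluster had -0.041 with equal array medians and -0.0017, -0.0039 and -0.0059 without untreated replicate 1, untreated replicate 2 and 60 nM OA replicate 3, up to 0.0070 on leaving out others. The UGT1A cluster had -0.029 under quantile normalization, -0.041 with equal array medians and -0.0048 without 60 nM OA replicate 3, up to 0.0065 without others. The PCDHA cluster had 0.0056 under the shift by hybridisation controls. With the chromosome score the cluster of HSPA1A first had 0.0011, SMN1 -0.038, SNHG1 0.0083 and 5S RNA 0.010. The 5S RNA value was -0.12 to 0.0064 on leaving out 1 array, the highest without untreated replicate 3, and the same without it and 20 nM OA replicate 2. Signal over background limited what could be measured, with 741 of 1543 shared clusters above the background level.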
